A study of Drosophila melanogaster with 2 samples.

Results

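Sens-2-eGFP binding was described at 34 nuclear receptor and ecdysone response genes of *Drosophila melanogaster*, out of 17947 annotated genes, 13968 of them protein-coding. The genes form a list of named members: 21 nuclear receptors, 6 early response genes and 7 hormone synthesis genes. All 34 were found in the annotation, 2 of them under a newer symbol (Eip71CD as MsrA and phm as phtm). Each gene was given a domain made of its body and 2 kb upstream, and a peak was assigned to every domain that held its summit. The study is a ChIP-seq experiment, in which DNA bound by a protein is precipitated and sequenced, on whole embryos aged 0 to 24 h. It has 1 group with 2 biological replicates. The flies were transgenic and carried sens-2 fused to eGFP, and the precipitation used an antibody against GFP after sonication to fragments of 200 to 800 bp. Without a control group, every comparison is between genes, and a library of input DNA was not analysed here. Whole embryos pool all cell types over the whole of embryogenesis, so a summit gives neither the cell type nor the hour of binding.

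Sens-2 is a zinc finger protein related to Senseless, a factor of the GFI1 family whose binding sites hold the core AAATCA. Ecdysone is the steroid hormone that times molting and metamorphosis in insects, and a pulse of it also occurs in mid-embryogenesis. Cytochrome P450 enzymes encoded by the Halloween genes make the hormone, the receptor pair of EcR and usp binds it, and the bound receptor turns on early genes that encode further transcription factors. Several of those early and early-late genes are nuclear receptors themselves, and the remaining receptors of the fly act in segmentation, in neurons or in metabolism.

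Positions and signals came from peak lists on dm6. The conservative list, made from the alignments of both replicates, held 2883 peaks on the assembled chromosomes, with a median signal of 78.6 in the authors' units. A second thresholded list across both replicates, called the broader list here, held 3145 peaks. The thresholded lists of replicate 1 and replicate 2 held 1960 and 1636 peaks. Their ranked lists, which keep weak peaks, held 117153 and 93828. Signals are on the scale of each list and were compared within a list. Read depth per library is unknown, and intervals given below cover counting of genes or peaks alone.

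The windows below show the DNA at 9 of the 28 conservative summits in member domains: the strongest at Hr4, Hr96, E23 and ERR, all that held the AAATCA core, and an AT-rich window at Hr78. Each is 101 bp of dm6 centred on the summit, read on the plus strand from Release 6 of the genome. Capitals mark AAATCA, or TGATTT where the core lies on the minus strand.
Hr4, intron, chrX:1947706-1947806: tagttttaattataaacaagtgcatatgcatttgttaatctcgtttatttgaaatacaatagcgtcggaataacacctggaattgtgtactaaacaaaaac
Hr96, promoter, chr3R:25025036-25025136: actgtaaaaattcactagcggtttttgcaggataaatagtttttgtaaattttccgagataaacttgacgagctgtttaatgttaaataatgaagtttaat
E23, promoter, chr2L:3354987-3355087: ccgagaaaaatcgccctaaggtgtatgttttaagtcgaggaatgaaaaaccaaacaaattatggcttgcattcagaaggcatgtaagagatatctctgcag
ERR, promoter of ERR-RB, chr3L:8185647-8185747: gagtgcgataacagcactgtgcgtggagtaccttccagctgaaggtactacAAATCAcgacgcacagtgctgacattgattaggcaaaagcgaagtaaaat
ERR, promoter of ERR-RA, chr3L:8186806-8186906: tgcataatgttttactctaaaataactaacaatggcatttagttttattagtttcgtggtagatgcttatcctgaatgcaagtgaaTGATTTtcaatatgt
Eip75B, promoter of Eip75B-RA, chr3L:17971505-17971605: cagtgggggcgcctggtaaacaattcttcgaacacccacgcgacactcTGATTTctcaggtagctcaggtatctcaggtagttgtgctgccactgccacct
spo, upstream, chr3L:5594443-5594543: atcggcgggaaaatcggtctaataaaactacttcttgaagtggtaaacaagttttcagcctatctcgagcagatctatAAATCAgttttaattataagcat
svp, intron, chr3R:12272358-12272458: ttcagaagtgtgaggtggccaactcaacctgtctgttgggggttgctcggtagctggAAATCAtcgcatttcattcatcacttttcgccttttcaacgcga
Hr78, promoter of Hr78-RE, chr3L:21497030-21497130: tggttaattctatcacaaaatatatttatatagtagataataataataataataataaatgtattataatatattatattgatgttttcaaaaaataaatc

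Conservative Sens-2 summits lay in the domains of 13 of the 34 genes. Most of the 13, like most of the 34, were nuclear receptors. Of the 21 receptors, 10 held a summit: EcR, Eip75B, Eip78C, Hr3, Hr4, Hr78, Hr96, ERR, svp and eg. Among the early response genes, E23 and Eip74EF held summits, and spo was the only hormone synthesis gene with a summit. The other 21 genes held none. Across all protein-coding genes, 17.9% had a summit in this list (2500 of 13968). The 13 genes are 38.2% of the list (exact 95% interval 22.2 to 56.4%).

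Member domains are long, with a median of 19.5 kb against 4.16 kb for all protein-coding genes. With protein-coding genes split into 10 classes of about equal size by domain length, 43.5% of the longest class and 6.03% of the shortest held a summit. Genes of the members' length classes held a summit in 32% of cases, which gives 10.9 of 34 genes, and the 200 protein-coding genes nearest in length to each member in 33.7%, which gives 11.4. Both values lie inside the interval of the members' share, so 13 of 34 is near what genes of this length showed. Of the 18 members in the longest class (over 16.7 kb), 8 held a summit, against 43.5% of the protein-coding genes there.

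**Figure D1:**
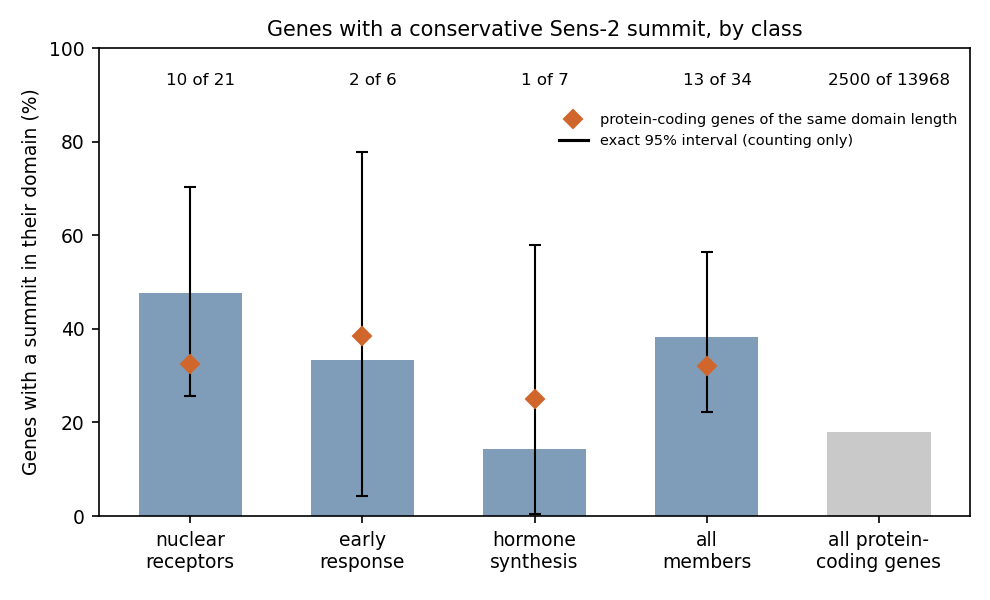
Percentage of genes with a conservative Sens-2 summit in the body or the 2 kb upstream, for each class, for all 34 members and for all protein-coding genes. Bars start at 0, black lines are exact 95% intervals for counting alone, and orange diamonds give the share among protein-coding genes of the same length class: 32.5% for receptors, 38.4% for early response genes, 25% for hormone synthesis genes and 32% for all members.

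By class, 47.6% of receptors held a summit (interval 25.7 to 70.2%), against 32.5% of protein-coding genes of the same length classes. The early response genes stood at 33.3% (4.33 to 77.7%), against 38.4% by length. Among the hormone synthesis genes the share was 14.3% (0.361 to 57.9%), against 25% by length. Receptors were above, and the other classes below, the share of genes of their length, and all 3 intervals covered that share. Differences between the classes were not tested, and the order of receptors and early response genes turned under some settings. The shares were 28.6% and 33.3% in peaks at or above the median signal, and 42.1% and 50% with Eip75B and Eip78C counted as early response genes.

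Counted by summits, the members held 28 in 1.03 Mb of domain, or 27.3 per Mb (exact 95% interval 18.1 to 39.4), against 24.6 per Mb over the domains of all protein-coding genes. Receptor domains held 23 of these, or 37 per Mb (23.5 to 55.5). Early response domains held 4, or 15.1 per Mb (4.11 to 38.6), and hormone synthesis domains held 1, or 7.14 per Mb (0.181 to 39.8). Summits were concentrated in few genes: Eip75B had 7, and Hr3 and Hr4 had 4 each, together 15 of the 28. E23, ERR and Eip74EF had 2 each and the remaining 7 genes had 1. Domain length and number of summits were weakly related across the 34 genes (Spearman's rho 0.31).

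**Figure D2:**
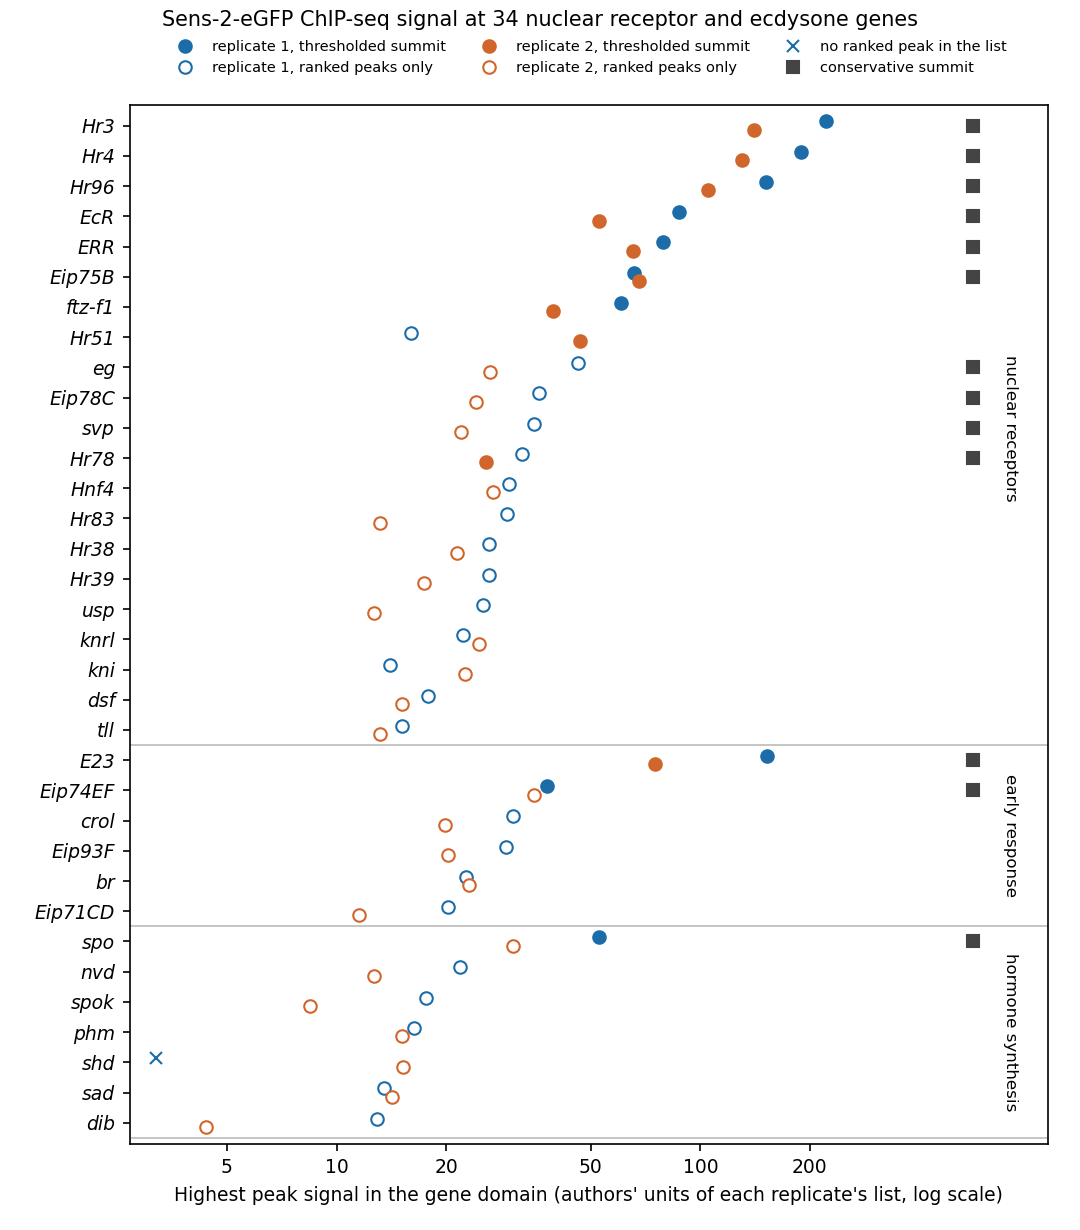
Highest Sens-2-eGFP peak signal in the domain of each of the 34 genes, in the ranked list of replicate 1 (blue) and replicate 2 (orange), on a log axis in the authors' units of each list, grouped by class. Filled circles mark genes with a thresholded summit in that replicate, crosses mark a domain without a ranked peak, and dark squares mark genes with a conservative summit. Hr3, Hr4, Hr96 and E23 lie farthest to the right in replicate 1, and the hormone synthesis genes other than spo lie at or below 21.9 in replicate 1 and 15.2 in replicate 2.

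Among the ecdysone-regulated receptors, Hr3, the fly relative of the ROR receptors and an activator of ftz-f1 at the onset of metamorphosis, carried the strongest summit of all members. Its signal in the conservative list was 367, rank 57 of 2883, at chr2R:10219975-10220157 in an intron, 7900 bp downstream of the shared start of Hr3-RA, Hr3-RF and Hr3-RH. The same site had a signal of 221 in the thresholded list of replicate 1 and 140 in that of replicate 2. A second Hr3 summit, 2885 bp upstream of that start and inside the longer gene body, had a conservative signal of 99.7 and was also in both replicate lists, at 69.8 and 32.3. The remaining 2 Hr3 summits were weak, at 53.2 (52 bp upstream of the start) and 46, and were in neither replicate's thresholded list. Hr3 shares its DNA with CG12912 and CG46321, whose bodies also contain the strongest summit, so assignment to Hr3 rests on overlap alone.

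Hr4, a repressive nuclear receptor that limits hormone output in the larval gland that makes ecdysone, held 3 strong summits within 22020 bp of its main start. Their conservative signals were 318 (rank 89, 5816 bp downstream of the main start, the Hr4 window above), 244 (22020 bp downstream) and 228 (9958 bp downstream). All 3 were in both replicate lists, at 189, 165 and 127 in replicate 1 and 130, 77.6 and 105 in replicate 2. No Hr4 summit lay within 1 kb of a transcript start. A further summit of 73.6 was in the thresholded list of replicate 2 alone, at 35.9, and a site at 78.9 in the broader list was in that of replicate 1 alone, at 53.8.

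Eip75B, a heme-binding receptor related to REV-ERB and a classic early ecdysone gene, had the most summits, each below the strongest at Hr3, Hr4, Hr96, E23, ERR and EcR. The 7 conservative signals ran between 37.8 and 114 over a domain of 116 kb, the longest of any member. Summits were placed at 2 of its 7 transcript starts: 95.8 at 116 bp upstream of Eip75B-RA, shown above with its AAATCA core, and 92 at 83 bp downstream of Eip75B-RC. Of the 7, only the Eip75B-RC site was in both replicate lists, at 65.8 in replicate 1 and 32.8 in replicate 2. Its strongest site, 114, was in the thresholded list of replicate 2 alone at 60.7, as were the Eip75B-RA site at 67.8 and a further site at 28.1. The sites at 77 and 54.6, were in the list of replicate 1 alone, at 57.4 and 37.5, and the weakest was in neither.

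**Figure D3:**
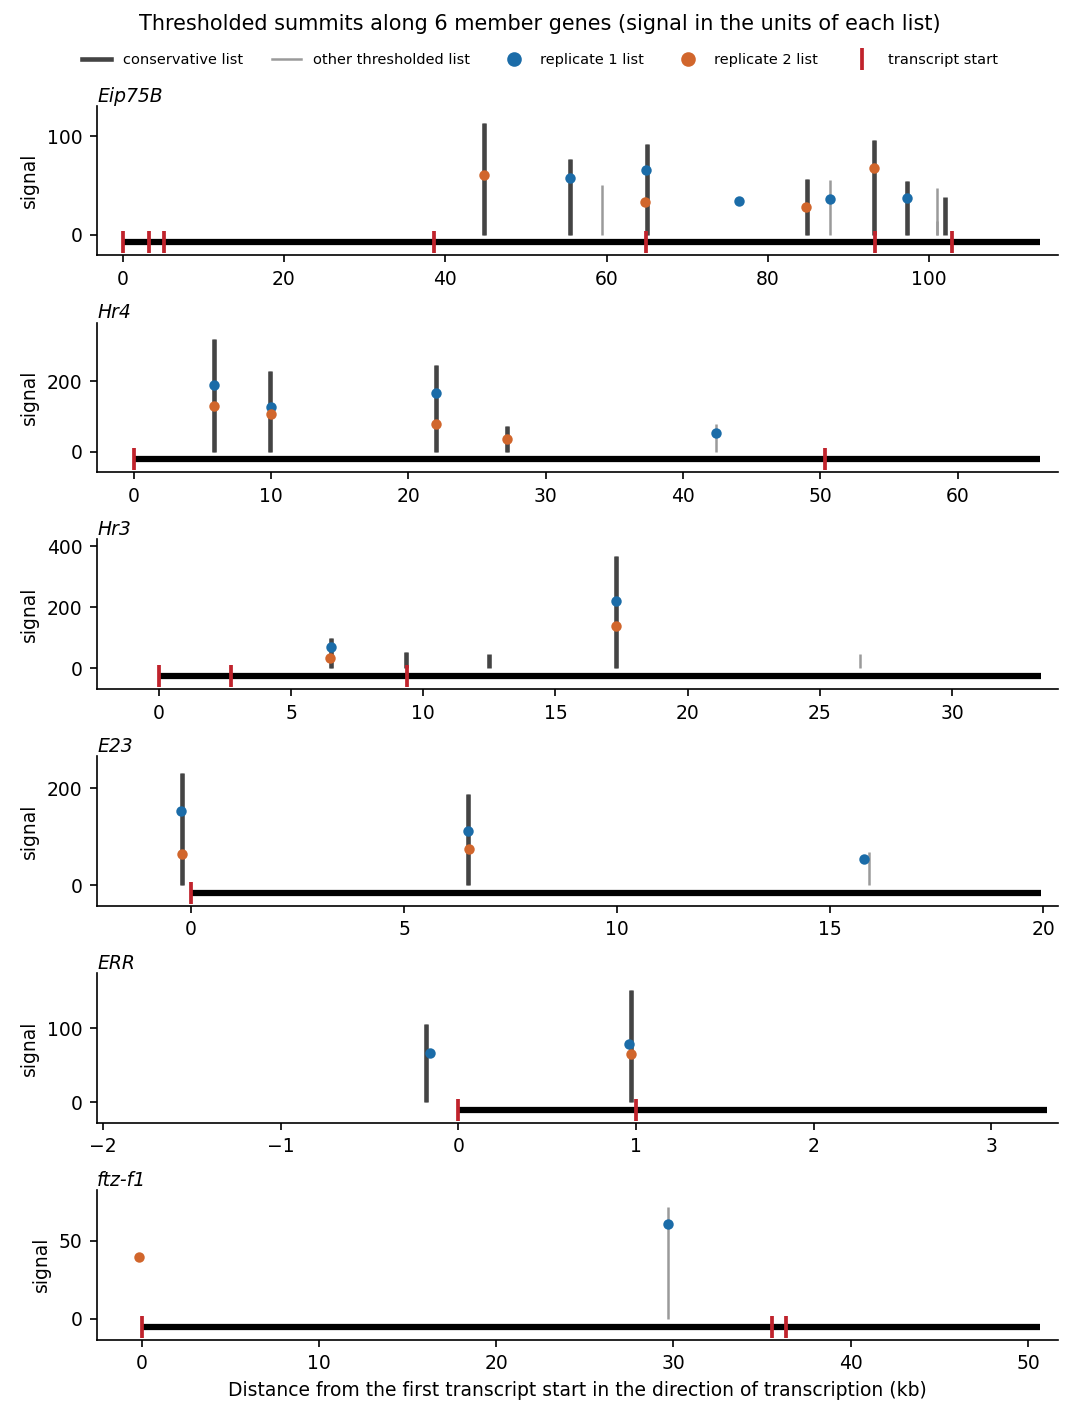
Thresholded Sens-2 summits along Eip75B, Hr4, Hr3, E23, ERR and ftz-f1, by distance in kb from the first transcript start in the direction of transcription (black bar, gene body; red ticks, transcript starts). Stick height is the signal in the conservative list (dark) or the broader list (grey), and circles give the signal in the list of replicate 1 (blue) or replicate 2 (orange), each on its own scale. The 3 strong Hr4 sites lie within 22020 bp of the first start and away from any start, Eip75B has 7 conservative sites between 37.8 and 114, and the ftz-f1 site of replicate 1 lies inside the gene and that of replicate 2 by its first start.

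The hormone receptor itself, EcR, had 1 conservative summit, and its partner usp, the fly RXR, had none. The EcR summit had a signal of 121 at chr2R:6151165-6151460, in an intron 5816 bp downstream of the start of EcR-RD and EcR-RE. It was in both replicate lists, at 87.2 in replicate 1 and 48.8 in replicate 2. This intron also contains asparagine tRNA genes, and the nearest start to the summit, 1363 bp away, was that of tRNA:Asn-GTT-1-1. The thresholded list of replicate 2 had a further summit of 52.7, above its own value at the first site, 38 bp from the start of tRNA:Asn-GTT-1-3, and the broader list gave that region 79.7. The broader list also held a summit of 49.2 at the start of EcR-RD and EcR-RE itself, 7 bp upstream. At usp the highest ranked peaks had signals of 25.2 in replicate 1 and 12.7 in replicate 2.

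The competence factor ftz-f1 had a thresholded summit in both replicates at different sites. This NR5A receptor, a cofactor of the segmentation protein Ftz, had no conservative summit, and replicate 1 placed its thresholded summit in an intron, at 60.6 (chr3L:18771429-18771708). Replicate 2 placed its own 166 bp upstream of ftz-f1-RB, at 39.4 (chr3L:18801347-18801602). The peaks did not overlap. The broader list held the intron site alone, at 71.9. Of the other ecdysone-linked receptors, Eip78C, a REV-ERB relative, had an intronic summit of 56.9. Hr78, which larvae need for responses to the hormone, had a promoter summit of 44.7, rank 2770 of 2883. The Eip78C site was in neither replicate list, and the Hr78 site was in that of replicate 2 alone, at 25.8. Hr39, an NR5A receptor of the reproductive tract and metamorphosis, had no thresholded summit, with highest ranked signals of 26.2 and 17.4 in replicates 1 and 2.

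Of the metabolic receptors, Hr96 and ERR carried promoter summits and Hnf4 had none. Hr96, which controls responses to xenobiotics and cholesterol handling, had a summit of 251, rank 149, at chr3R:25025026-25025183, 149 bp upstream of its start. Both replicates held it, at 151 and 105. The divergent gene EMC6 starts 69 bp from this summit, nearer than Hr96 does. ERR, the estrogen-related receptor that switches embryos to glycolytic metabolism, had a summit at each of its 2 starts. The stronger, 152, lay 27 bp upstream of ERR-RB and was in both replicate lists, at 78.9 and 65.4. The weaker, 106, lay 185 bp upstream of ERR-RA, 1 bp from the start of the divergent autophagy gene Atg18a, and was in the thresholded list of replicate 1 alone, at 66.7. At Hnf4, which drives fat use in larvae, the highest ranked signals were 29.7 and 26.9 in replicates 1 and 2.

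Of the receptors of patterning and neurons, svp and eg had a conservative summit, neither above the median signal of the list. The summit of svp, the COUP-TF relative that acts in photoreceptors and in the timing of neuroblasts, had a signal of 58.3 in an intron, 718 bp from the start of the nested gene Sfp87B. The summit of eg, which specifies serotonergic neurons, had a signal of 78, 327 bp upstream of eg-RB. Neither was in a replicate's thresholded list. Hr51, a receptor of mushroom body neurons, had a thresholded summit in replicate 2 alone, at 46.7 and 619 bp upstream of its start, while its highest ranked signal in replicate 1 was 16. The nearest conservative summit lay 0.313 kb outside the Hr51 domain. The gap and terminal genes kni and tll, the kni relative knrl, the sex-behaviour gene dsf, the activity-regulated gene Hr38, and Hr83 had no thresholded summit in any list. Over the 11 receptors without a conservative summit, highest ranked signals ran between 14 (kni) and 60.6 (ftz-f1) in replicate 1 and between 12.7 (usp) and 46.7 (Hr51) in replicate 2.

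Of the early response genes, E23 stood apart in signal. E23 encodes an ABC transporter induced early by ecdysone, and its summits at the promoter (208 bp upstream, chr2L:3355007-3355127) and 6515 bp into the gene had conservative signals of 231 and 187. Both sites were in both replicate lists, the promoter at 152 and 64.2 and the intron at 111 and 75.1 in replicates 1 and 2. Eip74EF, an ETS transcription factor, had intronic summits of 79 and 54.5. The first was in the list of replicate 1 alone at 31.1, the second in neither, and the broader list left out the first and held a promoter site of 55.7.

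The long early genes br and Eip93F had no thresholded summit. The br gene, a BTB zinc finger gene needed for pupal development, spans a domain of 91.7 kb, and the nearest conservative summit lay 89.8 kb outside it. Among the 200 protein-coding genes nearest to br in length, 57% held a summit. The highest ranked signals at br were 22.7 and 23.2 in replicates 1 and 2, above 19.5% and 48.2% of protein-coding genes of the same length class. Eip93F, which specifies adult form, reached 29.3 and 20.2 in a domain of 67.4 kb. The zinc finger gene crol reached 30.5 and 19.9, and Eip71CD, a methionine sulfoxide reductase, reached 20.2 and 11.5. A conservative summit lay 0.682 kb outside the Eip71CD domain.

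Hormone synthesis genes had the lowest signals of the 3 classes. Their median highest ranked signal was 16.3 in replicate 1 and 14.2 in replicate 2, against 29.9 and 21.7 for early response genes and 32.3 and 25.8 for receptors, whose domains are longer. Among protein-coding genes of the same length class, the median hormone synthesis gene was above 15.9% in replicate 1 and 21.9% in replicate 2. For early response genes these were 50.3% and 41.3%, and for receptors 67.6% and 68.6%. The summit assigned to spo, the P450 gene that serves ecdysone synthesis in the embryo, had a signal of 85 and lay 1922 bp upstream of spo, inside an intron of the neighbouring gene Alp10. Alp10 starts 779 bp from it. In the replicates it had a thresholded signal of 52.8 in replicate 1, and in replicate 2 the highest ranked peak in the spo domain, 30.5, did not pass the threshold. The paralog spok, which serves the larval gland, reached 17.6 in replicate 1 and 8.46 in replicate 2, and its domain lay 860 kb from the nearest conservative summit. The oxygenase gene nvd, which acts on cholesterol in the first step, reached 21.9 and 12.7 at 1377 kb from the nearest summit. Ranked peaks of any signal were sparse in both domains. In replicates 1 and 2 there were 0.445 and 0.178 per kb at spok and 0.597 and 0.267 at nvd. The medians over all protein-coding genes were 0.976 and 0.819, and the reason for the difference was not tested. The hydroxylase genes phm, dib and sad reached between 12.9 and 16.3 in replicate 1 and between 4.39 and 15.1 in replicate 2. The nearest conservative summits lay 38.8, 6.07 and 2.85 kb outside the domains of phm, dib and sad. For shd, the hydroxylase gene of the final step, no ranked peak was listed in replicate 1, and the highest in replicate 2 was 15.2.

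Replicate by replicate, 10 members held a thresholded summit in replicate 1, against 13.5% of all protein-coding genes and 25% of those of the same length classes. Replicate 2 also had 10 members, against 11.9% of all protein-coding genes and 22.4% by length. That is 29.4% of members in each. Receptors made up 7 of the 10 in replicate 1 and 9 of the 10 in replicate 2. Both replicates had a thresholded summit at 8 genes (EcR, Eip75B, Hr3, Hr4, Hr96, ftz-f1, ERR and E23), which is 66.7% of the 12 members with a summit in either. Among all protein-coding genes, whose domains are shorter, the corresponding share was 57.6% of 2254. Both shares count genes and not sites, so a gene with different sites in the replicates, such as ftz-f1, is counted as shared. Eip74EF and spo had a summit in replicate 1 alone and Hr51 and Hr78 in replicate 2 alone. The conservative summits of Eip78C, svp and eg had no thresholded support in either replicate's own list. The broader list had a summit at 14 members, the same 13 and ftz-f1, against 19.1% of all protein-coding genes and 33.6% by length.

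**Figure D4:**
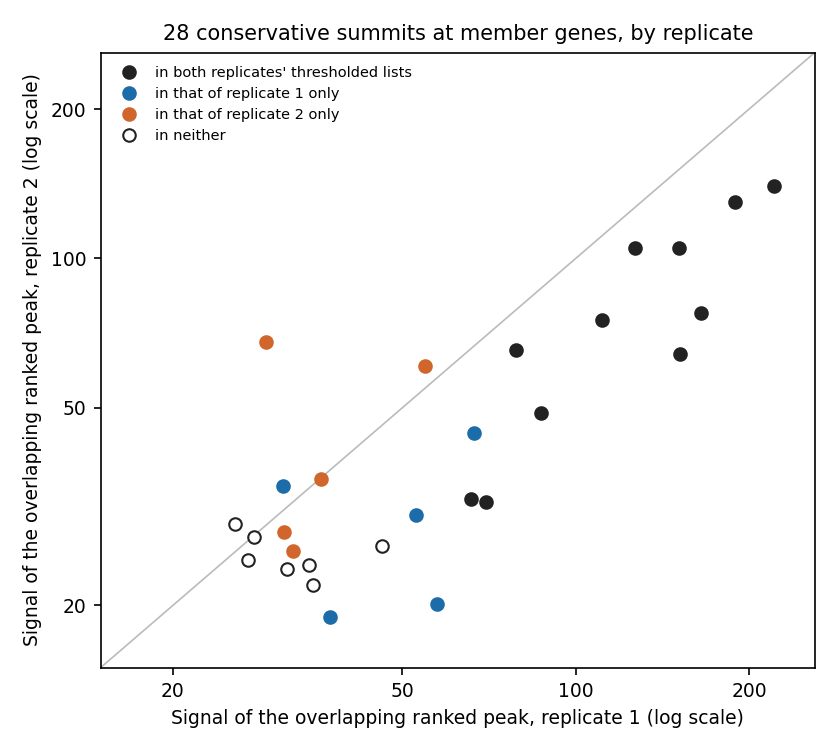
Signal of the ranked peak that overlaps each of the 28 conservative member summits in replicate 1 (horizontal) and replicate 2 (vertical), both on log axes in the authors' units, with a grey line of equal values. Black points were in both replicates' thresholded lists (11 summits), blue in that of replicate 1 alone (5), orange in that of replicate 2 alone (5) and open circles in neither (7).

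All 28 member summits overlapped a ranked peak in each replicate. They were called from the same 2 replicates, and the ranked lists keep weak peaks, so this overlap was largely set in advance. Of the 28, 11 (39.3%) overlapped a thresholded peak in both replicates, against 40.5% of all 2883 conservative summits. Thresholded peaks of replicate 2 alone overlapped 5 member summits (17.9%, exact 95% interval 6.06 to 36.9%), against 10.1% of all summits. Those of replicate 1 alone also overlapped 5 (17.9%), against 19.3% of all. The other 7 (25%) overlapped a thresholded peak in neither replicate, against 30.1% of all. Across the 33 members with a ranked peak in both replicates, the highest ranked signals were related with a Spearman's rho of 0.80 and, on the log2 scale, a Pearson's r of 0.87, against 0.65 and 0.79 over 12502 protein-coding genes. Within the 13 members with a conservative summit these were 0.94 and 0.95, and within the 20 without they were 0.37 and 0.47. The conservative list was made from the same 2 replicates, so this split itself favours agreement among the 13 over the rest. The points are genes that share the same 2 libraries and differ in domain length, so the values are descriptions. The median highest ranked signal was 65.8 in replicate 1 and 52.7 in replicate 2 for the 13 members with a conservative summit, whose peaks chose them. For the 21 members without, the medians were 21.9 and 15.2, against 20.5 and 15.8 for all protein-coding genes. Set against protein-coding genes of the same length class, the median member of these 21 was above 25% of genes in replicate 1 and 38.2% in replicate 2. These 21 were chosen for lacking a summit, while the protein-coding genes include those with a summit, which lowers the 21 by selection.

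Member summits were mostly intronic, in a share like that of summits in other long genes. Of the 28, 19 (67.9%, exact 95% interval 47.6 to 84.1%) lay in introns, against 65.4% of the 1219 summits in the longest class of protein-coding domains and 38% of all conservative summits. The other 9 (32.1%, 15.9 to 52.4%) were within 500 bp of a transcript start, against 30.4% in the longest class and 44.2% in all. All 9 promoter summits were within 500 bp of a start of the member itself, and 2 of them, at Hr96 and at ERR-RA, were nearer to a start of the divergent neighbour. The median signal was 88.5, against 78.6 in the whole list, and the median GC content of the 101 bp windows was 42.1%, against 35.6% in the whole list and 34.7% in the longest class.

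The AAATCA core was found on either strand in 5 of the 28 windows (17.9%), at both ERR sites, Eip75B-RA, svp and spo, and in 17.9% of all 2883 windows of the same length. In the list of replicate 2, 5 of 19 member summits held it (26.3%), against 18.3% of all summits there. In the list of replicate 1 these were 2 of 23 (8.7%), against 16.2%. These counts are small, and the summit of the same site can differ between lists, which moves the window. At Eip75B-RC the window of replicate 2 held the core and that of replicate 1 did not. The 7 strongest conservative member summits, at 187 and above in Hr3, Hr4, Hr96 and E23, were without these letters within 50 bp, and the next, ERR-RB at 152, held them. AGGTCA, a half-site of nuclear receptor binding elements, was in none of the 28 windows and in 1.84% of all. At so low a share, its absence from 28 windows says little. GAGAG was in 2 (7.14%), against 11.7%, and TATCGATA in none, against 1.25%. CATAAA, the letters of AAATCA in shuffled order and used as its control, was in 1 (3.57%), against 13.1%. Over all windows, then, AAATCA was in 17.9% and its shuffled control in 13.1%, so many windows can hold these letters without a binding site. None of these motifs contains another.

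Other genes of the pathway, from lists chosen with earlier results of these data known, were counted in the same way. Among receptor cofactors and chaperones, 9 of 13 held a conservative summit (69.2%), against 29.1% of protein-coding genes of the same length classes and 38.2% of the 34 members. The strongest were Hsp83, the Hsp90 chaperone of steroid receptors, at 285, the corepressor gro at 271 and the chromatin remodeller kis at 219. Genes of hormone supply and clearance had 1 of 14 (7.14%, against 20% by length), the ecdysone importer Oatp74D at 99.3. Among further hormone targets 4 of the 17 matched genes held a summit (23.5%, against 22%), led by ImpL2 at 344, Eip63E at 209 and Eip63F-1 at 124. Juvenile hormone genes had 3 of 7 (42.9%, against 21.8%), the receptor gene gce at 157, Kr-h1 at 74.2 and Jheh1 at 51.4. Of the peaks named here, those at kis, Oatp74D and gce were nearest to the start of another gene (lncRNA:CR44222, CG6333 and asRNA:CR44429). So were some cofactor peaks not named, and assignment rests on the domain alone. None of these shares was tested against another.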

How the data were processed

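ChIP-seq peak lists for 2 biological replicates were used. Per the labels, coordinates are on dm6. Text files beside the lists name the alignments behind each: those of 1 replicate for its own ranked and thresholded lists, and those of both for the rest. No source used here names the aligner or the peak caller. In each list the authors gave a signal per peak and a score made from the irreproducible discovery rate, at least 830 in the deposited thresholded lists. Of 8 deposited lists 6 were used, and 40 further columns of 4 ranked lists were not.

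Genes came from Ensembl release 115 (BDGP6.54). Summits were placed in domains, in promoters (500 bp around a start) and in other features with Python 3.11.15. Shares have exact Clopper-Pearson intervals at 95% (scipy 1.17.1) and densities exact Poisson intervals. Protein-coding genes were split into 10 classes of domain length. The set of 200 genes nearest in length was added after seeing that the longest class is wide. Overlap of peaks meant at least 1 bp. The assignment was checked on simulated data. Members, classes and other lists were chosen with earlier results of these data known, so no test was made over them. Every member with a conservative summit was named, the others by their highest ranked peaks, and up to 3 genes per other list. Alternatives changed the list, replicate, signal, domain, assignment and classes.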

Additional observations from a re-analysis of the deposited data

How the results depend on the processing

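The count of members with a summit (13), their share (38.2%), the shares of the classes, the number of summits (28), their density (27.3 per Mb), the share of member windows with AAATCA (17.9%) and the members shared by the replicates (8) were recomputed under each alternative that bears on them. Under the alternatives 58 values stayed close to these and 10 moved, each given here. Counts were called close within 1.5 times and shares within the interval of the reported share, which is wide for small classes. Inside such intervals, the share of early response genes was 16.7% without replicate 1, against 33.3% as reported, and the AAATCA share was 8.7% without replicate 2, against 17.9%. A replicate was left out by using the other replicate's own thresholded list, and no list was remade. Within 1 kb of a transcript start, 7 members (20.6%, against 13% of protein-coding genes) held 10 summits, and Hr4, EcR, Eip74EF, Eip78C, spo and svp were lost. The order of receptors and early response genes also turned by nearest start (28.6% and 33.3%) and with 5 kb upstream (47.6% and 50%, with Eip71CD gained), and both stood at 33.3% without replicate 2. With each summit given to the nearest start alone, 8 members held one (against 13.4%), without EcR, Eip78C, Hr96, spo and svp. In peaks at or above the median signal of the list, 16 summits remained (57.1%), or 15.6 per Mb. This cut leaves 50% of the whole list by construction, and 51.3% of summits in protein-coding domains passed it. The share of hormone synthesis genes, which rests on spo, was 0% for gene bodies without upstream sequence, within 1 kb of a start and by nearest start. Leaving out a replicate gave a share of 0% (without replicate 1) to 14.3% (without replicate 2) for that class. Without replicate 2 the members lost Eip78C, Hr78, eg and svp and gained ftz-f1. Without replicate 1 they lost Eip74EF, Eip78C, eg, spo and svp and gained Hr51 and ftz-f1. These lists are shorter than the conservative list, with a summit at 13.5% and 11.9% of protein-coding genes, against 17.9%. No paired analysis was possible because both samples belong to 1 group. With 2 replicates and unknown read depth, a gene without a summit may hold binding too weak or in too few cells for these lists.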

Other observations

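The window at the ERR-RB promoter, shown in the report, holds an inverted repeat with arms of 13 bases, cagcactgtgcgt at chr3L:8185658-8185670 and acgcacagtgctg at chr3L:8185706-8185718, with 35 bases between them that include the AAATCA core. Arms of 13 bases or more were found in 7 of the 2883 windows of the conservative list (0.243%), and the others were nearest to the starts of asRNA:CR44114, Ts, CG31638, CG7394, snRNP-U1-C and lsn. In the other member windows the longest arm ran between 5 and 9 bases. This search was made after the window had been read.

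The Eip75B-RA window holds the letters CAGGTA, which were in 1.91% of all 2883 windows and in no other member window. This motif was also chosen after the windows had been read. No ranked peak of replicate 1 lay in a stretch of 25.5 kb around shd, while replicate 2 had 10 ranked peaks in the shd domain. Replicate 1 had 261 such stretches of 20 kb or more, and 1071 protein-coding domains without a ranked peak. In replicate 2 these were 285 and 853.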
